A study of Mus musculus with 6 samples.

Results

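Mesothelin (Msln) and 6 further genes of the mesothelium were followed in RNA from SOX9-GFP cells of mouse embryonic liver. The 7 genes are Msln, Wt1, Upk3b, Upk1b, Lrrn4, Gpm6a and Bnc1, out of 52550 genes in the deposited table. They were selected on the measured values, since Msln was picked for its large rise between the stages, so the change of these genes between the stages is a description and carries no p-value. Cells came from CD-1 mice of the genotype Sox9-GFP, whose green fluorescent protein reports expression of SOX9, a transcription factor, at embryonic day 16 or 18 by the labels and E16.5 or E18.5 by the study's methods. All 6 libraries shared that strain, reporter and preparation: pools of 15 livers were dissociated, hematopoietic cells were removed with magnetic beads, and GFP-positive cells were sorted. There were 3 libraries per stage, named A, B and C after their labels, and the study made them to ask whether ion transporters and water channels are expressed when bile duct lumina start to form.

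The mesothelium is the thin epithelium that covers the liver and the other organs of the body cavities. In the embryo it is known to express the transcription factor WT1 and retinoic acid synthesis enzymes, and in the developing liver some of its cells enter the organ and become stellate cells and fibroblasts. Mesothelin is a GPI-anchored surface glycoprotein of mesothelial cells that binds the mucin MUC16, and it is little expressed in other healthy tissues. No gate in this sort selected for or against the mesothelium, and the reporter selects by Sox9, a gene of biliary cells that other cells also use.

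RNA of the labelled cell type, the cholangiocyte, was looked at first. All 13 genes of a biliary list were above 0 in every library. So were all genes of the hepatoblast and megakaryocyte lists, so presence alone does not check the label. The biliary genes summed to 1013 to 3020 TPM at E16.5, then 8829 to 14977 TPM at E18.5. In each E16.5 library this sum lay below those of the hepatoblast and megakaryocyte lists. Sox9 itself, the reporter gene, lay between 69.5 and 186 TPM at E16.5, then between 353 and 466 TPM at E18.5. TPM is a read count scaled to the length of the gene and to the total of the library. The sort also held other RNA. Hepatoblast genes, 12 in the list, summed to 164132 to 206533 TPM at E16.5, then 37632 to 88204 TPM at E18.5, the 7 megakaryocyte genes summed to 3222 to 9340 TPM and 85.0 to 738 TPM, and the 6 pancreatic acinar genes reached 2406 TPM in library A of E16.5 against 220 and 77.6 TPM in B and C. Recovered reads per library ranged from 23193537 to 26206374 at E16.5 and from 13093937 to 22643868 at E18.5, so every E18.5 library was shallower.

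On the GRCm38 build the genes lay on 6 chromosomes. Msln (ENSMUSG00000063011) spans chr17:25748613-25754378 on the minus strand, and its tail is 282 bases from that of its relative Mslnl on the plus strand, with no shared exon sequence. Wt1 (ENSMUSG00000016458) spans chr2:105126529-105173616 on the plus strand, 18 bases from the antisense gene Wt1os. Upk3b lies at chr5:136038496-136046487 on the plus strand, Upk1b at chr16:38773184-38800328 on the minus strand and Lrrn4 at chr2:132868305-132880891 on the minus strand. Gpm6a lies at chr8:54954843-55060871 on the plus strand, and Bnc1 at chr7:81966672-81992292 on the minus strand, where 2.11% of its exon bases are shared with 4833418N17Rik on the other strand. Reads from those shared bases are kept apart only if the counting used strand, which is not given in the sources used here. The other 6 genes shared no exon base with another gene in the annotation.

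Promoter sequence is shown for Bnc1, Upk3b and Lrrn4, which rose together and for each of which the RefSeq table (GRCm38.p6) held 1 start, to show how unlike their upstream regions are. Each is the 250 bases before the start, read on the gene's own strand. Capitals mark a match to a binding motif of the WT1 and EGR family of zinc fingers, searched as GCGTGGGNG or GNGGGGGCG on both strands and counted together.
Bnc1 at chr7:81992300-81992549, minus strand: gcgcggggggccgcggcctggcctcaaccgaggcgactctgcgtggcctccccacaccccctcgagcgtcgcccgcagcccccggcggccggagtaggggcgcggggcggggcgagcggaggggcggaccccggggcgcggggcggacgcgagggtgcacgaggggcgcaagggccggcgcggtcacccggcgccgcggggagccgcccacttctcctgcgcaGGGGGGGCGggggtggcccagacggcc
Upk3b at chr5:136038246-136038495, plus strand: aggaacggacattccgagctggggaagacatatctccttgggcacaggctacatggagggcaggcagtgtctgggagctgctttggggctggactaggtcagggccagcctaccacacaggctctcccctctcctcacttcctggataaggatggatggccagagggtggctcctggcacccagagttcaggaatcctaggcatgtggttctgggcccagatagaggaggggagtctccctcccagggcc
Lrrn4 at chr2:132880863-132881112, minus strand: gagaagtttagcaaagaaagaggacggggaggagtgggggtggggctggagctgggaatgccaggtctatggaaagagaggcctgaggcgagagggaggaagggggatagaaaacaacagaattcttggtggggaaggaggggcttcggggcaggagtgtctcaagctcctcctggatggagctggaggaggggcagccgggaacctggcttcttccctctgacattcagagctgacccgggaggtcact
Bnc1 held 1 match, and 83.6% of its bases were G or C, with 39 CpG pairs. Upk3b was 60.8% G or C with 2 CpG pairs and Lrrn4 59.2% with 5, and neither held these letters. The 2 starts listed for Gpm6a were 44.4% and 33.6% G or C, with 1 and 3 CpG pairs and no match. Over all 32817 promoters of this length, 8.3% held a match, the median share of G and C was 52.4% and the median number of CpG pairs was 6. A match is a description of letters, and the 3 windows ranged from CpG-poor to CpG-rich. Table starts were found for 4 of the 7 genes; Msln, Wt1 and Upk1b are named only.

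Msln rose from a trace to a clear signal between the stages. At E16.5 it measured 2.70 TPM in library A, 0.243 TPM in B and 0.178 TPM in C, from 49, 4 and 3 reads. At E18.5 it measured 14.2, 37.7 and 38.0 TPM in A, B and C, from 206, 407 and 326 reads. The stages did not overlap, and the lowest E18.5 library was 5.27 times the highest E16.5 library. In bulk RNA, more cells of a type and more RNA per cell cannot be told apart, here and in every result that follows.

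The E16.5 level of Msln rested on 1 library. Of its 56 reads at that stage, 87.5% came from library A, and the value in C equalled the limit of 3 reads, 0.178 TPM. The exact 95% counting intervals were 1.9998 to 3.57 TPM in A, 0.0661 to 0.621 TPM in B and 0.0367 to 0.520 TPM in C, so A stood above both beyond counting error while B and C overlapped. The same library held the most pancreatic acinar RNA, given above. It also had the highest sum of 10 gallbladder, extrahepatic duct and gut genes, 106 TPM against 63.6 TPM in B and 27.7 TPM in C. The 15 stellate and fibroblast genes summed to 529 TPM in A, 395 TPM in B and 348 TPM in C. A was the highest E16.5 library for 14 of them. The part of any of these in the Msln value was not tested. At E18.5 the interval of A, 12.4 to 16.3 TPM, lay below those of B (34.1 to 41.5 TPM) and C (34.0 to 42.3 TPM). Means were 1.04 ± 1.44 TPM at E16.5, then 30.0 ± 13.6 TPM at E18.5 (SD, n = 3), a ratio of 28.8. Without library A of E16.5 the ratio was 143, and without library A of E18.5 it was 36.3. On the log2(TPM + 1) scale, which understates changes of low genes, the difference was 4.02 ± 0.55 (SE), and it placed Msln at rank 2 of the 22452 genes that averaged 1 TPM or more, against a median of 0.42 over all of these.

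**Figure D1:**
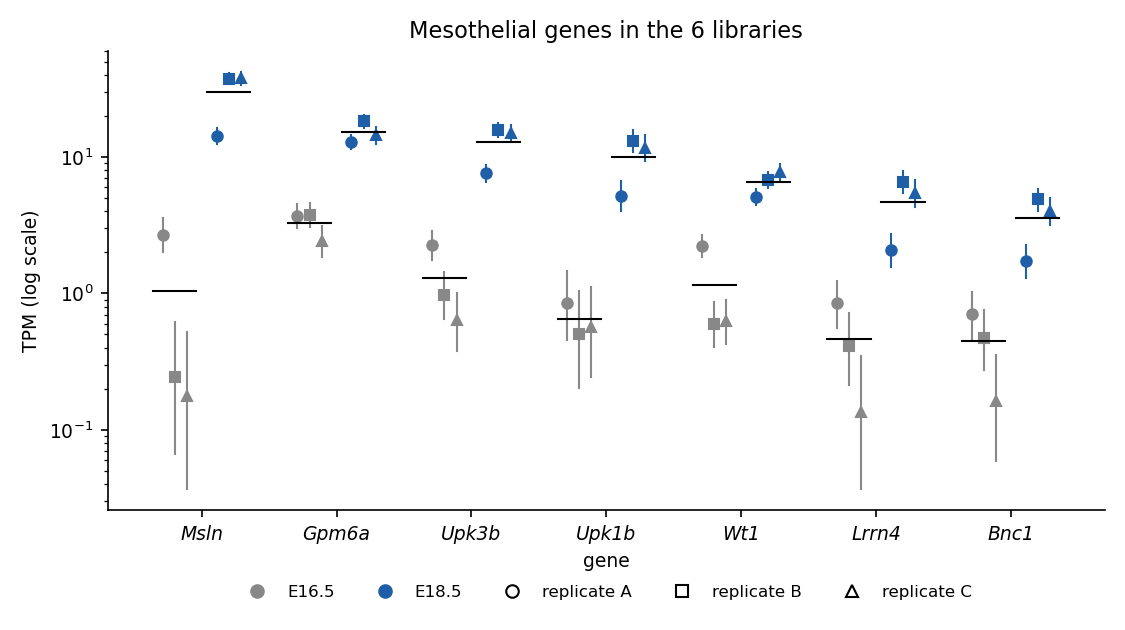
TPM of the 7 mesothelial genes (log axis) in each library, in order of their E18.5 means. Points are libraries (gray E16.5, blue E18.5, shape for replicate), vertical lines are exact 95% counting intervals and black bars are stage means. The E18.5 libraries lie above the E16.5 libraries for every gene, and library A (circles) is the lowest E18.5 point of each.

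Wt1, the zinc finger transcription factor that marks embryonic mesothelium, measured 2.22, 0.600 and 0.627 TPM in A, B and C at E16.5 (from 118, 29 and 31 reads). It measured 5.10, 6.82 and 7.79 TPM at E18.5 (from 216, 216 and 196 reads). As for Msln, A was the highest library at E16.5 and the lowest at E18.5, and the stages did not overlap. The difference was 1.88 ± 0.35 on the log2(TPM + 1) scale, and the ratio of means was 5.71, or 10.7 without library A of E16.5.

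Bnc1, which encodes the zinc finger protein basonuclin 1, was the least abundant of the 7. Its levels were 0.703, 0.469 and 0.162 TPM in A, B and C at E16.5 (from 28, 17 and 6 reads), and 1.73, 4.89 and 4.03 TPM at E18.5 (from 55, 116 and 76 reads). The difference was 1.60 ± 0.38 on the log2(TPM + 1) scale, the smallest of the 7, and the ratio of means was 7.98. The order of the genes thus depended on the scale, since by ratio Bnc1 stood above Wt1.

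Upk3b and Upk1b encode uroplakins, plaque proteins of the urothelium that mesothelial cells also express. Upk3b measured 2.25, 0.981 and 0.639 TPM in A, B and C at E16.5 (from 68, 27 and 18 reads) and 7.62, 15.9 and 15.1 TPM at E18.5 (from 184, 286 and 216 reads). Upk1b, a tetraspanin, measured 0.857, 0.507 and 0.567 TPM at E16.5 (from 13, 7 and 8 reads) and 5.21, 13.2 and 11.7 TPM at E18.5 (from 63, 119 and 84 reads). After Msln these were the largest differences of the 7, 2.66 ± 0.36 for Upk1b and 2.60 ± 0.37 for Upk3b on the log2(TPM + 1) scale, at ranks 48 and 57 of all genes tested. The 3 counting intervals of Upk1b at E16.5 overlapped one another, so no order of its E16.5 libraries could be read at this depth.

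Lrrn4 encodes a leucine-rich repeat membrane protein and Gpm6a a tetraspan glycoprotein that is also abundant in neurons. Lrrn4 measured 0.848, 0.414 and 0.135 TPM in A, B and C at E16.5 (from 27, 12 and 4 reads) and 2.09, 6.58 and 5.44 TPM at E18.5 (from 53, 125 and 82 reads). Gpm6a measured 3.70, 3.79 and 2.42 TPM at E16.5 (from 102, 95 and 62 reads) and 12.9, 18.3 and 14.5 TPM at E18.5 (from 284, 301 and 189 reads). Gpm6a was the steadiest of the 7 within a stage, with a highest library 1.57 times the lowest at E16.5 against 15.2 times for Msln. The differences were 1.89 ± 0.41 for Lrrn4 and 1.92 ± 0.23 for Gpm6a on the log2(TPM + 1) scale.

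All 3 E18.5 libraries lay above all 3 E16.5 libraries for 7 of the 7 genes, a pattern the selection favoured and that 45.0% of all tested genes also showed. All 7 passed the filter of a mean of at least 1 TPM, but Upk1b, Lrrn4 and Bnc1 had E16.5 means below 1 TPM and passed through the E18.5 libraries. Together the 7 genes summed to 13.3, 7.002 and 4.73 TPM in A, B and C at E16.5, then to 48.9, 103 and 96.5 TPM at E18.5. Msln made up 20.4%, 3.46% and 3.76% of that sum at E16.5, and 29.1%, 36.5% and 39.4% at E18.5.

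Levels can be ordered because TPM is per length, but the order depends on the lengths used. For Msln and Upk1b the lengths behind the values were inferred as 2114 and 1769 bases. GENCODE vM21 gives 3064 and 2089 bases, so the places of these 2 genes depend on the annotation. At E18.5 the mean levels in TPM (± SD, n = 3) ran from Msln (30.0 ± 13.6) through Gpm6a (15.2 ± 2.78), Upk3b (12.8 ± 4.54), Upk1b (10.02 ± 4.23), Wt1 (6.57 ± 1.36) and Lrrn4 (4.70 ± 2.34) to Bnc1 (3.55 ± 1.63). Each neighbouring pair in that order overlapped in range over the libraries. Within each E18.5 library the measured levels kept that order, except that Upk3b (15.1 TPM) lay above Gpm6a (14.5 TPM) in C. Some neighbours lay within counting error, such as Upk1b and Wt1 in A. At E16.5 Gpm6a led with 3.30 ± 0.77 TPM and did not overlap Upk3b at 1.29 ± 0.85 TPM, while Msln stood at 1.04 ± 1.44 TPM, below Wt1 at 1.15 ± 0.93 TPM. Among 21819 protein-coding genes, the mean level of Msln went from percentile 38.3 at E16.5 to percentile 74.6 at E18.5. No other of the 7 passed percentile 61.3 at E18.5.

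The order of the libraries within a stage was not used to select the genes. At E18.5 library A was the lowest for all 7 genes, whereas it was the lowest for 31.3% of all genes tested. The level in A divided by the mean of B and C was 0.35 for Lrrn4, 0.38 for Msln, 0.39 for Bnc1, 0.42 for Upk1b, 0.49 for Upk3b, 0.70 for Wt1 and 0.79 for Gpm6a, with a median of 0.42 beside 0.97 over all genes. At E16.5 library A was the highest for 6 of the 7 (44.4% of all genes), Gpm6a being the exception, and C was the lowest for 5 of the 7 (56.5% of all genes), Wt1 and Upk1b being the exceptions. Some of these orders lay within counting error. At E16.5 the counting intervals of A and B overlapped for Upk1b, Lrrn4 and Bnc1, so A stood clear of both other libraries only for Msln, Wt1 and Upk3b. The intervals of B and C overlapped for all 7 genes at that stage. At E18.5 the intervals of A and C overlapped for Gpm6a. Each stage has 3 libraries and these counts carry no test.

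Genes of other cell types ordered the E18.5 libraries in different ways. Library A was the lowest E18.5 library for 14 of 15 stellate and fibroblast genes, with a median ratio to B and C of 0.48, and for 10 of 10 endothelial genes, with a median of 0.49. It was the lowest for 1 of 13 cholangiocyte genes (median 1.06) and for 0 of 12 hepatoblast genes (median 1.08). Blood cell lists were also low in A by their medians, which were 0.47 for 8 leukocyte genes, 0.26 for 8 erythroid genes and 0.19 for 7 megakaryocyte genes, with A lowest for 3, 5 and 7 of them. The low value in A was thus shared with lists of several cell types. A list of 20 further mesothelial genes was less uniform, with A lowest for 12 of 20 and a median ratio of 0.68. Within it the lowest ratios were those of Calb2 (0), Slpi (0.25), Anxa8 (0.39), Muc16 (0.43), Nkain4 (0.49) and Tcf21 (0.54). Aldh1a2 (0.99), Crb2 (1.003), Dpp4 (1.02), Alcam (1.07), Tmem151a (1.10) and Tbx18 (1.59) were not low in A. Calb2, Anxa8 and Tbx18 averaged below 1 TPM. Library C was the highest at E18.5 for 2 of the 7 genes, Msln and Wt1, for 13 of 15 stellate and fibroblast genes, for 5 of 10 endothelial genes and for 24.5% of all genes tested. At E16.5 library A was the highest for 14 of 15 stellate and fibroblast genes and 7 of 10 endothelial genes. It was the highest for 10 of 20 further mesothelial genes, 3 of 13 cholangiocyte genes and 1 of 12 hepatoblast genes, beside 44.4% of all genes tested.

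**Figure D2:**
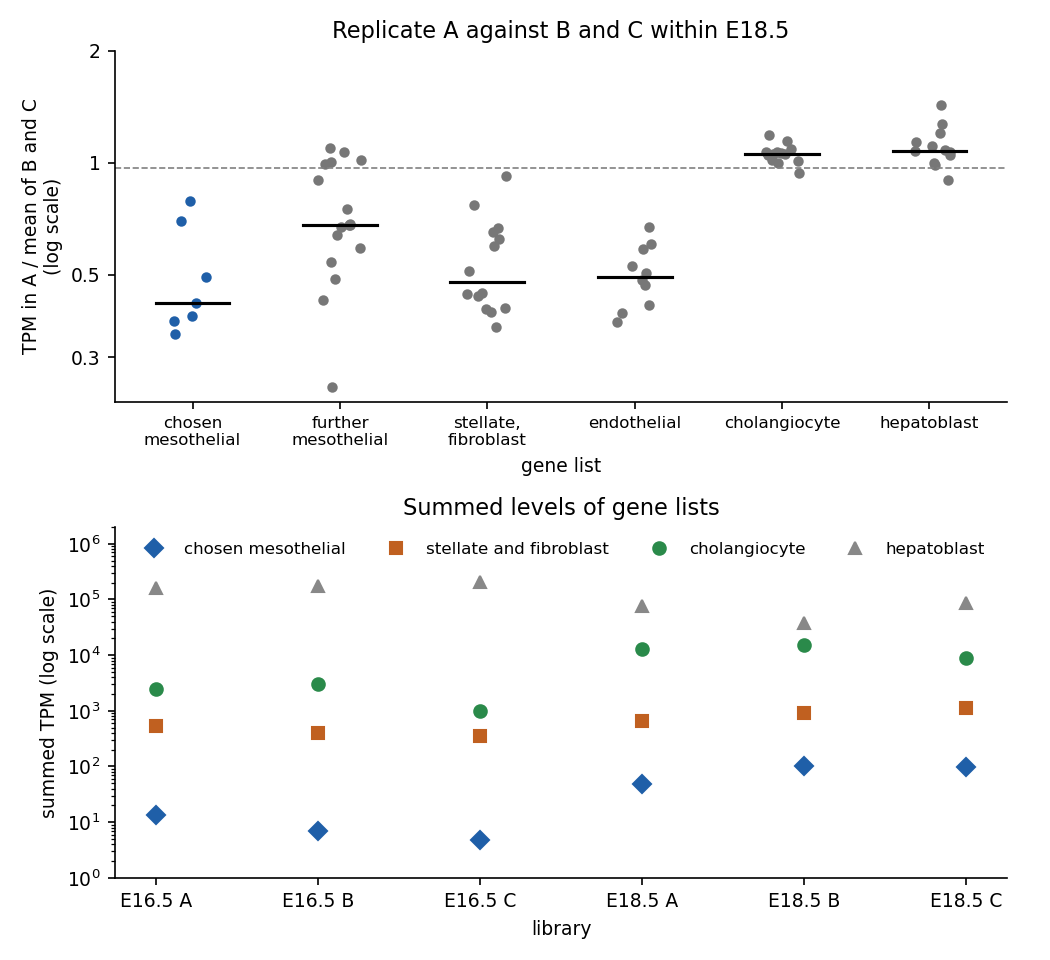
Upper panel: level in library A divided by the mean of B and C at E18.5 (log axis) for each tested gene of 6 lists, with list medians as black bars and the median of all genes, 0.97, as a dashed line. Lower panel: summed TPM of 4 lists in each library (log axis). The chosen mesothelial genes have a median of 0.42 in the upper panel, and their sums in the lower panel lie below those of the other lists in every library.

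Stromal and biliary RNA moved between the stages as well, and their part in the rise of the mesothelial genes was not tested. The 15 stellate and fibroblast genes summed to 348 to 529 TPM at E16.5, then 654 to 1147 TPM at E18.5, and the 13 cholangiocyte genes to 1013 to 3020 TPM and 8829 to 14977 TPM. All genes of both lists were above 0 in every library. Per 1000 TPM of the stellate and fibroblast list, the 7 genes came to 25.1, 17.7 and 13.6 TPM in A, B and C at E16.5, then to 74.8, 111 and 84.1 TPM at E18.5. These values did not overlap between the stages. Per 1000 TPM of the cholangiocyte list, the 7 genes came to 5.39, 2.32 and 4.66 TPM at E16.5, then 3.86, 6.90 and 10.9 TPM at E18.5, and the stages overlapped, since A of E18.5 lay below A and C of E16.5. Spp1, the osteopontin gene, made up 46.3% to 58.5% of that list in the E16.5 libraries, against 75.1% to 80.9% at E18.5. Without Spp1 the 7 genes came to 11.2, 5.59 and 8.69 TPM per 1000 TPM at E16.5, then 18.49, 36.2 and 43.8 TPM at E18.5, which did not overlap. Per 1000 TPM of Sox9, Msln alone came to 17.2, 1.30 and 2.56 TPM at E16.5, then 34.3, 80.9 and 108 TPM at E18.5. Whether the stages separated thus depended on the list used for division.

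A further list of 20 genes expressed in mesothelium was compared with limma, and most tested genes of it were higher at E18.5. Of the 17 genes that passed the filter, 11 rose, 1 fell and 5 did not pass an adjusted p of 0.05. Their median difference was 1.42 on the log2(TPM + 1) scale. Among those that rose, Muc16, Rspo1, Tmem151a, Crb2 and Fgf9 had E16.5 means below 1 TPM. They passed the filter through the E18.5 libraries, which favours a rise in the count. Over all genes, 26.0% rose and 5.22% fell, with a median of 0.42, and rises made up 83.3% of the calls, against 38.1% under median-of-ratios scaling and 50.5% under quantile scaling. A rise was not particular to this list, since 10 of the 13 cholangiocyte genes rose and 0 fell, with a median difference of 1.51. Of 14 tested stellate and fibroblast genes, 4 rose and 0 fell, with a median of 1.05. Efemp1, an extracellular matrix glycoprotein gene, had the largest rise of the further mesothelial list, from 8.90 ± 4.74 to 47.0 ± 7.70 TPM (SD, n = 3), a difference of 2.39 ± 0.37 (limma adjusted p = 0.0105). Aldh1a2, the retinoic acid synthesis enzyme of embryonic mesothelium, measured 10.4, 7.76 and 1.77 TPM in A, B and C at E16.5, then 24.2, 24.2 and 24.5 TPM at E18.5 (1.96 ± 0.49, limma adjusted p = 0.0267).

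Several of the further mesothelial genes that rose are tied to epithelial surfaces or to signals of the mesothelium. Muc16, which encodes the mucin that mesothelin binds, measured 0.531, 0.292 and 0.124 TPM in A, B and C at E16.5, then 1.85, 4.44 and 4.23 TPM at E18.5 (1.73 ± 0.35, limma adjusted p = 0.0165). Podxl, a sialomucin gene, rose by 1.44 ± 0.27, Pdpn, which encodes podoplanin, by 1.71 ± 0.39 and Crb2, a polarity gene, by 1.42 ± 0.25. Rspo1, a secreted amplifier of WNT signalling, rose by 1.81 ± 0.34 and Fgf9, a growth factor gene, by 1.28 ± 0.35. Tcf21, a transcription factor gene that fibroblasts and stellate cells also express, rose by 1.72 ± 0.34, and Tmem151a and Alcam by 1.78 ± 0.29 and 1.07 ± 0.20. These differences are on the log2(TPM + 1) scale, with limma adjusted p from 0.0105 to 0.0350 over the 11 genes.

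Slpi, a secreted protease inhibitor gene, was the one that fell, from 36.0, 20.4 and 55.6 TPM in A, B and C at E16.5 to 1.49, 6.30 and 5.63 TPM at E18.5 (-2.85 ± 0.50, limma adjusted p = 0.0130). Cldn15, Lrrn4cl, Nkain4, Dpp4 and Prg4 did not pass the threshold, with differences of 1.40 ± 0.46, 1.06 ± 0.43, 0.70 ± 0.31, 0.67 ± 0.24 and 0.27 ± 0.39. Anxa8, Calb2 and Tbx18 had means below 1 TPM and were not tested. Anxa8 read 0.152 ± 0.075 TPM at E16.5, then 1.75 ± 0.78 TPM at E18.5, and Calb2, the calretinin gene, was listed at 0 in B and C of E16.5 and in A of E18.5. The count of 11 changed with the libraries kept, to 6 without library A of E18.5 and 7 without library B of E18.5. Calls over all genes fell as well, from 7000 to 1472 and 2917, and fewer libraries leave less power. These counts therefore cannot show that the rises rested on single libraries. Under median-of-ratios scaling, where Aldh1a2, Pdpn and Fgf9 lost the call, the count of 11 became 8. Without both A libraries limma called 0 of 22511 genes, of which 6896 had an unadjusted p under 0.05.

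**Figure D3:**
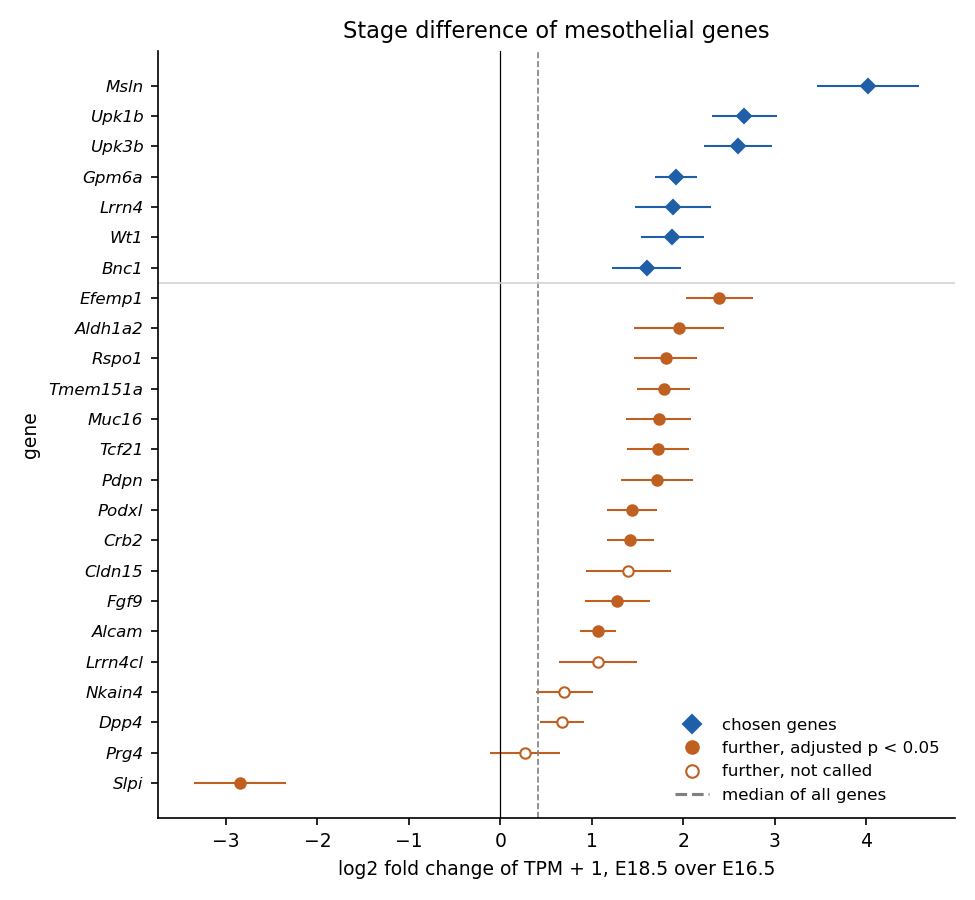
Difference in log2(TPM + 1) between E18.5 and E16.5 (x axis) for the 7 chosen mesothelial genes (diamonds) and the 17 tested genes of the further list (circles, filled where the limma adjusted p is under 0.05), with standard errors as bars. The dashed line is the median of all tested genes, 0.42. Msln lies furthest to the right at 4.02, and Slpi is the gene that fell, at -2.85.

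Paralogs and partners of the 7 genes gave a mixed picture. Of 14 such genes, 9 were tested and 4 of them rose (Muc16, Gpm6b, Bnc2 and Wtap), 0 fell and 5 did not pass. Over all genes tested, 26.0% rose. Gpm6b, the paralog of Gpm6a, was the more abundant of that pair, with 19.4 ± 2.9 TPM at E16.5, then 58.9 ± 10.7 TPM at E18.5 (1.55 ± 0.17, limma adjusted p = 0.00779). Bnc2, the paralog of Bnc1, had a difference of 1.05 ± 0.32 (limma adjusted p = 0.0441). Muc16 and Bnc2 had E16.5 means below 1 TPM and passed the filter through the E18.5 libraries. Wtap, whose protein was named for binding WT1, had one of 0.40 ± 0.11 (limma adjusted p = 0.0361), below the median of all genes, and it turned to -0.05 under median-of-ratios scaling, where Bnc2 lost its call as well.

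The other uroplakins did not follow Upk3b and Upk1b. Upk2 and Upk3a were listed at 0 in all 3 E18.5 libraries, with 0.108 TPM of Upk2 in A and 0.232 and 0.340 TPM of Upk3a in B and C at E16.5. Upk1a measured 3.61, 1.26 and 0.970 TPM in A, B and C at E16.5, then 2.98, 0.826 and 1.21 TPM at E18.5, with overlapping stages (-0.12 ± 0.45, limma adjusted p = 0.853). Mslnl, the neighbour of Msln, was listed at 0 in A and B of E16.5 and read 0.0477 TPM in C, against 0.834, 0.596 and 1.22 TPM at E18.5. Its mean was below 1 TPM, as were those of Lrrn2 and Wt1os, so none of these was tested.

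Of 12 genes named in the literature as targets of WT1, 7 were tested and 6 of them rose, where 26.0% of all genes tested rose. Among them were Podxl and Aldh1a2 above, Vegfa (1.40 ± 0.19) and Igf1r (1.28 ± 0.20). The limma adjusted p was 0.00890 for Vegfa and 0.0106 for Igf1r. The median of the 7 was 1.28, and Aldh1a2, Spry1 and Bcl2 lost the call under median-of-ratios scaling. Snai2 did not pass (0.24 ± 0.23) and turned negative under median-of-ratios and quantile scaling. Nphs1, the nephrin gene of kidney podocytes, measured 1.96 TPM in library A of E16.5 and 0.227 to 0.290 TPM in the other 5. Most of these targets are expressed in many tissues, and the list does not single out the mesothelium.

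Keratins shared by mesothelium and bile duct epithelium rose in 3 of 4 cases, beside 26.0% of all genes tested. Krt19 measured 122, 90.7 and 20.1 TPM in A, B and C at E16.5, then 227, 233 and 250 TPM at E18.5 (1.94 ± 0.60, limma adjusted p = 0.0470), and Krt7 and Krt8 also passed (1.38 ± 0.39 and 0.82 ± 0.18). Krt18 did not (0.42 ± 0.16) and turned to -0.04 under median-of-ratios scaling, where the other 3 keratins lost the call. Under quantile normalization Krt18 stood at 0.64 without a call, Krt8 kept its call at 0.96, and Krt7 and Krt19 lost theirs. Unlike the 7 mesothelial genes, the keratins were not low in library A of E18.5, where the median ratio to B and C was 1.10 and A was the lowest library for 1 of the 4.

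Genes with a pattern like that of Msln were sought over all 22452 tested genes. The log2(TPM + 1) values of each gene were centred on the gene's mean over the 6 libraries, and likeness was the root mean square distance from Msln, which is a description. The values were not scaled. A gene with a smaller change than Msln thus lies further away even where its libraries keep the order of Msln. The nearest 10 lay at distances of 0.62 to 0.78 log2 units. They were Ighj4, an immunoglobulin joining segment, the noncoding genes Gm33091, Gm15271 and Gm11376, the cytochrome P450 gene Cyp4f14, Socs2, the ribosomal RNA gene n-R5s8, the caveolin gene Cav1, Upk3b and Serpina3h. Upk3b was thus the ninth nearest at 0.77, Upk1b was at place 15, and the other 4 mesothelial genes lay between places 112 and 325. Cav1 measured 7.04, 5.10 and 2.29 TPM in A, B and C at E16.5, then 25.9, 44.1 and 39.9 TPM at E18.5, so it shared the low E18.5 value of library A, as did Ighj4 at 10.8, 21.7 and 13.7 TPM. A was also the lowest E18.5 library for Gm33091, Gm15271, n-R5s8, Gm11376 and Upk3b. It was not for Cyp4f14 (31.4, 34.7 and 20.6 TPM in A, B and C), Socs2 (45.3, 48.9 and 38.6 TPM) and Serpina3h (65.0, 38.9 and 46.5 TPM).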

How the data were processed

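RNA of GFP-positive cells, 3 pooled libraries per stage, was measured by the authors with a stranded total RNA kit. Per the labels and the study's methods they checked reads with FastQC 0.11.7, trimmed them, aligned them with HISAT2 2.1.0 to GRCm38, counted them with HTSeq and deposited TPM for 52550 genes. Here identifiers were matched to GENCODE vM21 (52403 matched, 147 did not). Each TPM times its exon length was divided by the value of 1 read, which gave reads, whole within 0.01 for 100% of values of genes with the same identifier version. For Msln and Upk1b, whose version differed, the shortest length giving whole reads in all libraries was used (2114 and 1769 bases), so their reads and intervals are the fewest that fit. Intervals are exact (Clopper-Pearson) at 95% and cover counting error only.

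The E18.5 and E16.5 libraries were compared by limma 3.58.1 (R 4.3.3; eBayes with a trend) on log2(TPM + 1) for 22452 genes averaging 1 TPM or more, adjusted over all of them after Benjamini and Hochberg, after a test on simulated data; p-values measure the spread between pools. SciPy 1.17.1 in Python 3.11.15 gave the intervals. The 7 genes and all lists were chosen with earlier results of these data known. Genes named are those 7, the lists and the 10 nearest to Msln. No library was a copy of another, since the chi-square per degree of freedom was 15.1 or more. Alternatives changed the pseudocount, filter, scaling, variance model or block, used voom on recovered reads, or left out libraries; leaving out both A libraries was added after seeing the data.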

Additional observations from a re-analysis of the deposited data

How the results depend on the processing

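The 7 mesothelial genes stayed higher at E18.5 under all alternatives that tested them, with log2 differences of 3.69 to 5.41 for Msln, 2.30 to 3.69 for Upk1b, 2.21 to 3.32 for Upk3b, 1.49 to 2.64 for Wt1, 1.504 to 2.18 for Gpm6a, 1.53 to 3.21 for Lrrn4 and 1.25 to 2.82 for Bnc1. Wt1, Lrrn4 and Bnc1 were not tested with a mean of at least 5 TPM. Msln was picked for its rise, and the stages did not overlap for any of the 7 genes. Changing the pseudocount, filter, variance model or block, or leaving out libraries, therefore could not turn the sign. Only the alternatives that rescale the libraries, voom included, could have done so. Msln differed by 5.41 with a pseudocount of 0.1, by 5.40 with voom, and by 3.73 to 5.00 when libraries were left out, the highest without both A libraries. Low reads limit the E16.5 values: Msln had 56 reads and Upk1b 28.

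The count of genes called, 7000, was 4282 with no filter on low values, 3795 under median-of-ratios scaling, 3796 under quantile normalization and 4508 when rescaled without hepatoblast, erythroid and very abundant genes. Calls were higher at E18.5 in 83.3%, but 38.1%, 50.5% and 67.9% under those last 3 scalings, and the median difference of all genes went from 0.42 to 0.01 under median-of-ratios scaling. Leaving out 1 library gave 1472 (without E18.5 A) to 5686 calls, with 2917 without E18.5 B, 4082 without E16.5 C and 4376 without E16.5 A; 0 were called by limma without both A libraries, where 6896 had an unadjusted p under 0.05. Of the further mesothelial genes, 11 were called higher, 6 with a mean of at least 5 TPM, where 8 were tested, and 6 to 11 without 1 library; 0 were called without both A libraries.

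The letters are not stated to pair the libraries. The deviations of same-lettered libraries correlated at -0.04 for A, 0.08 for B and 0.14 for C, and those of unlike letters at -0.146 to 0.084. With 3 libraries per stage these values cannot settle whether the libraries were paired. With the letter as a replicate block 7314 genes were called, 12 of the further list were called higher, and Msln had a standard error of 0.67.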
